A study of Mus musculus with 6 samples.

Results

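Immediate early response genes are the first genes that a cell transcribes after a stimulus, and 42 of them were followed in the RNA-seq of native cardiac fibroblasts (CFs). They were chosen by gene symbol as a list of early transcription factors and early feedback genes. All 42 were found among the 49548 genes of the count table, and all 42 were among the 15789 genes with enough counts to be tested. The libraries were poly(A) RNA of CFs isolated from C57BL/6 J mice aged 5 weeks, with 3 WT and 3 CharmeKO libraries. CharmeKO mice carry a PolyA signal inserted into the locus of the lncRNA Charme. The CFs of both groups went through enzymatic and mechanical dissociation of the heart, red blood cell lysis and depletion of hematopoietic lineages before RNA extraction. No library from undissociated heart was analysed here, so the levels below describe cells after this procedure. The labels also state growth in a medium with serum on fibronectin, conditions that the methods give for the explant cultures. The sample titles call these cells native, and in the paper native and cultured CFs were sequenced as separate sets. The samples were therefore read as native cells. Red cell and endothelial transcripts were abundant in every library, as given below. Time in culture was not tested from the RNA. The question for these genes was how strongly they were expressed in the RNA of the isolated cells and whether the genotypes differed.

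The genes fall into a short regulatory loop. Growth factors, stretch, injury and stress activate MAP kinases, which act on factors already present in the nucleus, such as the serum response factor Srf, its ternary complex partners and Creb. These factors switch on the early genes within minutes, without new protein synthesis. Fos and Jun proteins then pair as AP-1, EGR and KLF zinc fingers bind GC-rich sites, and NR4A receptors act as nuclear receptors without a known classical hormone. Feedback follows quickly: DUSP phosphatases remove phosphate from MAP kinases, Zfp36 proteins bind AU-rich mRNAs and speed their decay, and Socs3 blocks cytokine signalling. Tissue dissociation is a known inducer of this programme in many organs.

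The upstream bases of a few members are shown for the known elements of early gene promoters that they hold. Upstream windows of 250 bases were found in the RefSeq promoter table (build GRCm38.p6) for 33 of the 42 members, and the sequences are printed 5′ to 3′ with the searched motifs in capitals. Fos, Zfp36 and Dusp1 are the most abundant members described here whose window held a motif, and Srf was added after its window was seen because it holds a pair of sites for its own protein.

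Fos (chr12:85473640-85473889, plus strand): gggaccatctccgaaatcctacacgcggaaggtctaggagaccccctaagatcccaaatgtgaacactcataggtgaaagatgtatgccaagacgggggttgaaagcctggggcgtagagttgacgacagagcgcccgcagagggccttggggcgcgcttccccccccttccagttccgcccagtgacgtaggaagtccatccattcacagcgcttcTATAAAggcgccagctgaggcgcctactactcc
Zfp36 (chr7:28379229-28379478, minus strand): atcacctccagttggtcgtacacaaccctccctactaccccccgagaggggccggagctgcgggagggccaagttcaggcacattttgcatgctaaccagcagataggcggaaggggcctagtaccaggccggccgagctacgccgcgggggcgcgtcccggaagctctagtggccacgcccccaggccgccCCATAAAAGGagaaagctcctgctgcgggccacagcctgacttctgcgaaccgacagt
Dusp1 (chr17:26508473-26508722, minus strand): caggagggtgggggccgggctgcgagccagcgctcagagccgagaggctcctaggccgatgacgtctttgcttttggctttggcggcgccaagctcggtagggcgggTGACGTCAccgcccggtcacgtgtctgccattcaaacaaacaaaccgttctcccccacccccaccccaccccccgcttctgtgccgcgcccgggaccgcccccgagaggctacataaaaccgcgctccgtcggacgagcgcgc
Srf (chr17:46556163-46556412, minus strand): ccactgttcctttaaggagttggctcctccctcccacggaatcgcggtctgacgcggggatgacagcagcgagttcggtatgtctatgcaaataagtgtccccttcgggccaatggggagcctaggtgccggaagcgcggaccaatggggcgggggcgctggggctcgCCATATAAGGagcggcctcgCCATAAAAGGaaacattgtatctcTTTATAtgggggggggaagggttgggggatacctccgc

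In Fos the capitals mark a TATA box (TATAAA), 33 to 28 bases before the annotated start. In Zfp36 they mark a CArG box, the binding site of Srf, CCATAAAAGG at 58 to 49 bases before the start. In Dusp1 they mark a cyclic AMP response element (CRE), TGACGTCA, at 143 to 136 bases. In Srf they mark the CArG boxes CCATATAAGG and CCATAAAAGG, at 82 to 73 and 62 to 53 bases, and a TATA box on the other strand. Motifs were searched on both strands, and a TATA box could overlap a CArG box.

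CArG boxes were found in 4 of the 33 members with a window (12.1%), namely Dusp5, Egr2, Srf and Zfp36, and in 1.62% of the 27025 genes of the table. The CRE was found in 4 of 33 members (12.1%), Btg2, Dusp1, Maff and Ppp1r15a, and in 1.77% of all genes. No member held both elements in its window. The AP-1 site TGACTCA was found in 1 member, Csrnp1 (3.03%, against 5.16% of genes), and the EGR site GCGTGGGCG in 1 member, Maff (3.03%, against 0.622%). TATA boxes were found in 6 members (18.2%, against 14.3%). These are matches of letters in a short window and no measure of binding. Members without a window and bases farther upstream were not searched, so a motif not found here may lie outside the window.

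The libraries held between 9595701 (WT replicate 3) and 42101393 (WT replicate 1) counts. Charme itself had 26, 15 and 4 counts in WT replicates 1 to 3, and 7, 0 and 0 counts in CharmeKO, so at this low level the targeted gene gave a weak check of the labels. Fibroblast markers such as Pdgfra and Dcn were abundant in every library, with a summed level of 31231 to 37746 CPM (counts of a gene relative to the TMM-scaled library size) for 8 markers in WT and 29707 to 34774 in CharmeKO. The 8 endothelial markers, among them Kdr, summed to 7391 to 9944 CPM over the 6 libraries, so the RNA was not of CFs alone, and the 8 mural markers summed to 2378 to 2790 CPM. Red cell transcripts summed to 24396 to 39184 CPM over 5 markers. The 8 leukocyte markers summed to 28.6 to 53.5 CPM and the 4 Schwann markers to 6.26 to 8.55 CPM. None of these markers was at 0 in all libraries. In bulk RNA, fewer cells of a type and less RNA per cell cannot be told apart.

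Transcripts of the early genes made up a large part of the mRNA in every library. The 42 members took 4.77%, 6.53% and 4.89% of all counts in WT replicates 1 to 3, and 5.88%, 5.23% and 5.66% in CharmeKO replicates 1 to 3. WT replicate 2 had the highest share, the other WT libraries the lowest shares, and the groups overlapped. On average WT libraries gave 5.40% ± 0.984 (SD over 3 libraries) and CharmeKO libraries 5.59% ± 0.330 (SD over 3 libraries). The difference of 0.195 percentage points became -0.121 when library sizes were scaled by TMM and 0.762 without WT replicate 2, so its direction was not fixed by these libraries. Only 6 of the 42 genes, Fos, Fosb, Jun, Junb, Jund and Egr1, held 2.65% to 3.77% of the counts in a library.

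**Figure D1:**
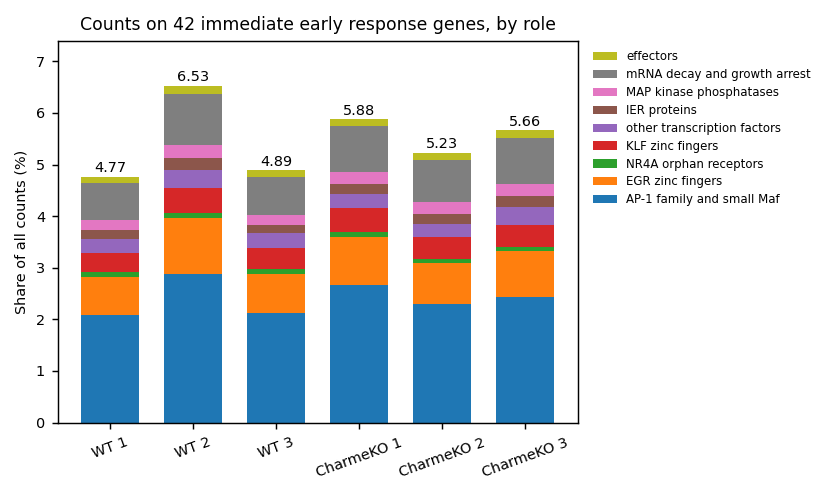
Stacked bars give the percent of all counts in each of the 6 libraries that fell on the 42 genes, coloured by role, with the total above each bar. The AP-1 family and small Maf genes hold the largest part in every library, and the WT bars span 4.77% to 6.53%.

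AP-1 subunits led the list by level. Levels were compared between genes as normalized CPM per kb of exon, averaged over the 6 libraries. They are levels in bulk RNA that also held endothelial and mural transcripts, and which cells gave them was not tested. Junb stood at 2285 CPM per kb, Jund at 2257, Fos at 1915, Egr1 at 1889 and Jun at 1370, and each of these 5 was above 99.9% of the tested genes. Zfp36 followed at 1007 CPM per kb, Klf2 at 852, Fosb at 763, Socs3 at 668 and Klf4 at 643. Of the 20 most abundant genes per kb 5 were members, of the top 100 16, and of the top 300 25. Without regard to length, 6 members were among the 20 genes with the highest CPM, and Egr1 was at rank 4. The lower end held Egr3 at 8.51 CPM per kb, Fosl1 at 3.64 and Egr4 at 0.451, so EGR and AP-1 genes stood both near the top and far below it. Egr4, the lowest member, was above 18% of the tested genes. Egr4 had only 50, 31 and 9 counts in WT replicates 1 to 3 and 14, 4 and 56 counts in CharmeKO.

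**Figure D2:**
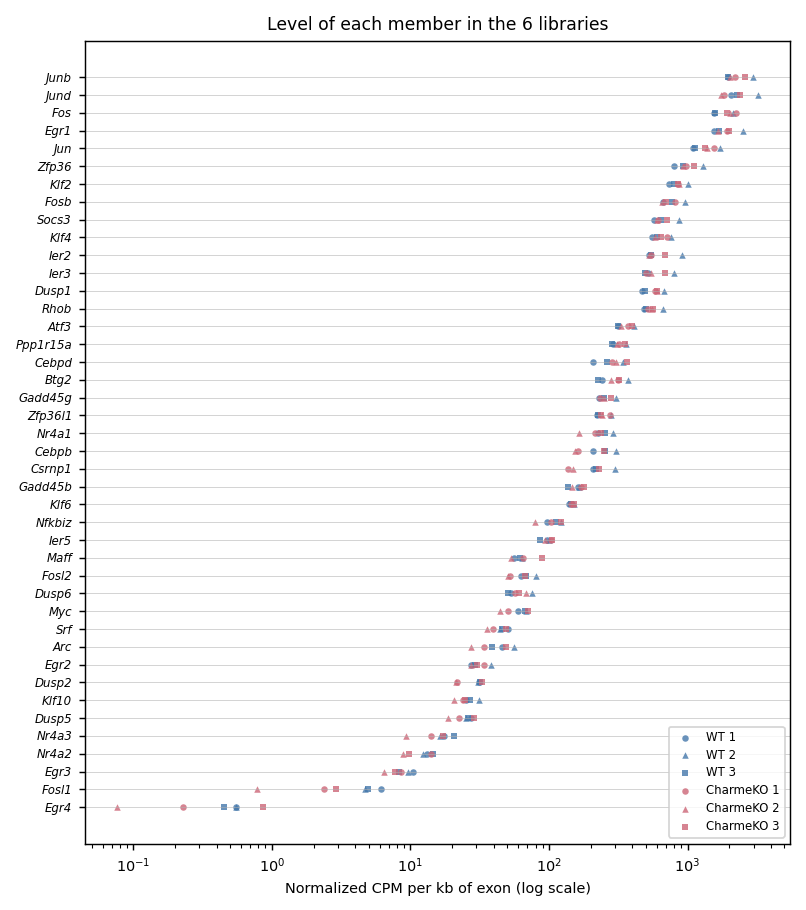
Each row is a gene and each point a library, with the normalized CPM per kb of exon on a log axis, WT in blue and CharmeKO in red. Levels run from 0.451 (Egr4) to 2285 (Junb) CPM per kb on average, and the points of both genotypes interleave in most rows.

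No member differed between CharmeKO and WT at an adjusted p under 0.05 in edgeR's quasi-likelihood test, in which 0.83% of all tested genes were called. Of the 42 members, 15 had a higher value and 27 a lower value in CharmeKO. Over all 15789 tested genes, 8090 had a higher and 7699 a lower value. The median of the members was -0.06 on the log2 scale, against 0.01 over all tested genes. Adjusted p-values of the members ran from 0.151 to 0.997. At an unadjusted p under 0.05, 5 members stood lower and 0 higher (Fosl1, Egr3, Csrnp1, Nr4a3 and Cebpb), where 12.8% of all tested genes were at that level, 6.87% lower and 5.9% higher. DESeq2 called 1 member, Fosl1, where it called 2.5% of all genes. The 3 CharmeKO libraries lay wholly below the 3 WT libraries for 2 members, Fosl1 and Klf10, and the groups were separate for 18.2% of all genes. The 95% interval of the log2 fold change lay within 1 in either direction for 40 of 42 members, all but Fosl1 and Egr4. A 2-fold difference between the groups was therefore outside the interval for those 40. The p-values measure the spread between these 6 samples, which the labels do not tie to single animals. The paper's methods name 3 WT and CharmeKO mice as donors of the hearts, and its supplement names 3 independent biological replicates.

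**Figure D3:**
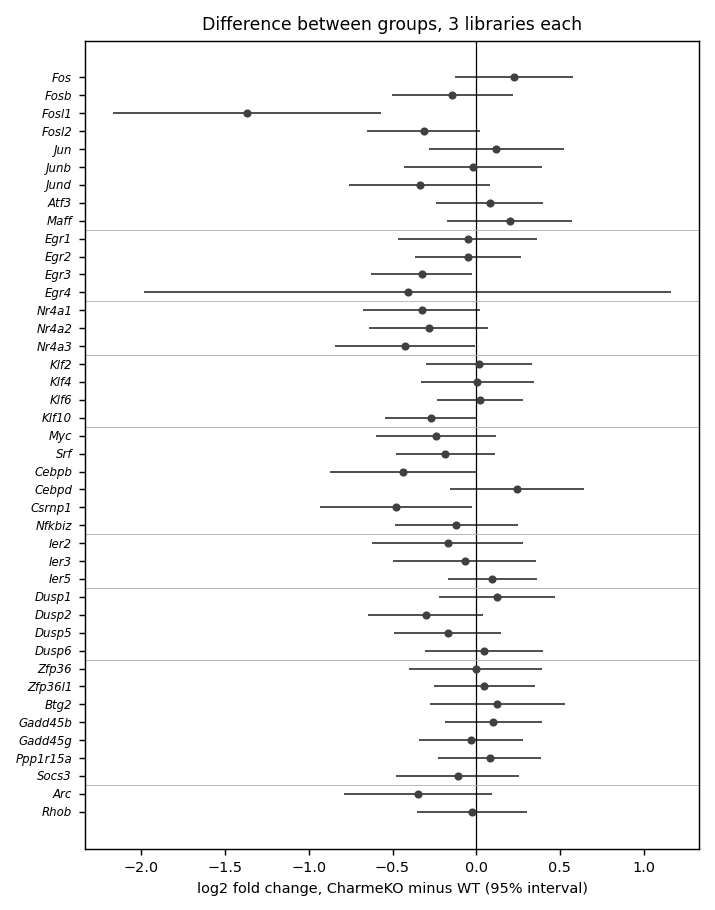
Points give the log2 fold change of CharmeKO minus WT for each member, grouped by role, and bars the 95% interval from edgeR's quasi-likelihood fit with 3 libraries in each group. All but the lowest point, Fosl1 at -1.37, lie between -0.48 and 0.24.

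Among the AP-1 genes, Fosl1 (ENSMUSG00000024912), which encodes the Fos family protein Fra-1, had the lowest fold change of all members. Its level was 12.5, 9.54 and 9.999 CPM in WT replicates 1 to 3 and 4.85, 1.60 and 5.92 CPM in CharmeKO. All 3 CharmeKO libraries were below all 3 WT libraries, on 39 to 532 counts per library. The log2 fold change was -1.37 ± 0.366 (SE), with a 95% interval of -2.17 to -0.57. The adjusted p was 0.151 by edgeR and 0.00870 by DESeq2. Without a filter on low counts it was 3.28e-06 by edgeR, in a fit that called 2.84% of its genes, against 0.83% in the main fit. The call depends on the tool and its settings. Of the 2033 exon bases of Fosl1 in the GRCm38 annotation, 1163 overlap exons of Ccdc85b on the opposite strand, and the counting used strand.

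Fos (ENSMUSG00000021250), the founding AP-1 subunit, was at 3671, 5048 and 3742 CPM in WT and at 5286, 4744 and 4530 CPM in CharmeKO. The highest Fos level was in CharmeKO replicate 1, and WT replicate 2 lay inside the CharmeKO range. Its log2 fold change was 0.22 ± 0.160 (SE; edgeR adjusted p = 0.605). Fosb was at 4170, 5974 and 4844 CPM in WT and at 5081, 4116 and 4383 CPM in CharmeKO, a log2 difference of -0.14. Fosl2, which encodes Fra-2, averaged 684 ± 88.9 CPM over the WT and 550 ± 90.6 CPM over the CharmeKO libraries (SD, n = 3), with a log2 fold change of -0.31.

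Jun was at 3516, 5460 and 3582 CPM in WT and at 4985, 4434 and 4239 CPM in CharmeKO. Junb, often an opponent of Jun in growth control, was at 4495, 6850 and 4532 CPM in WT and at 5050, 4633 and 5984 CPM in CharmeKO. Jund, the most constitutive Jun gene, was at 3426, 5412 and 3775 CPM in WT and at 3078, 2933 and 3968 CPM in CharmeKO. In all 3 Jun genes WT replicate 2 was the highest library and the groups overlapped. Their log2 fold changes were 0.12, -0.02 and -0.34. Atf3, a stress-induced partner of Jun, had a log2 fold change of 0.08. Maff, a small Maf protein that lacks an activation domain, was at 144, 166 and 159 CPM in WT and at 168, 139 and 231 CPM in CharmeKO. The value of 0.20 for Maff rested on CharmeKO replicate 3, and was -0.025 without that library.

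All 4 EGR genes had lower values in CharmeKO, and none was called. Egr1, a zinc finger factor induced by nearly every mitogen, was at 6983, 11315 and 7569 CPM in WT and at 8579, 7496 and 8871 CPM in CharmeKO. WT replicate 2 stood far above the other 5 libraries, which spanned 6983 to 8871 CPM. Egr1 had a log2 fold change of -0.05 ± 0.189 (SE; edgeR adjusted p = 0.937), which became 0.19 without WT replicate 2. Egr2 had a value of -0.05 and Egr3 of -0.33, and Egr3 averaged 41.7 ± 4.81 CPM over the WT and 33.4 ± 4.54 CPM over the CharmeKO libraries (SD, n = 3). Egr4 was at 1.18, 1.18 and 0.968 CPM in WT and at 0.489, 0.164 and 1.84 CPM in CharmeKO. Its lowest and its highest library were both CharmeKO, and its interval ran from -1.99 to 1.17.

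The 3 NR4A orphan receptors also had lower values in CharmeKO, and none was called. Nr4a3, which encodes Nor-1, was at 104.6, 97.8 and 124 CPM in WT and at 84.6, 55.6 and 102.5 CPM in CharmeKO. CharmeKO replicate 2 was the lowest, and CharmeKO replicate 3 lay above WT replicate 2. The log2 fold changes were -0.42 for Nr4a3, -0.33 for Nr4a1 (Nur77) and -0.29 for Nr4a2 (Nurr1), with adjusted p-values of 0.388 to 0.500. Together they took 0.0964% to 0.110% of the counts in WT and 0.0700% to 0.0951% in CharmeKO, and the gap between the nearest libraries of the groups was small beside the spread within CharmeKO.

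The KLF genes, zinc finger factors of quiescence and vascular tone, had the lowest median within-group SD of the roles, 0.156 on the log2 scale. Klf6 had a within-group SD of 0.046, the lowest of the list, where the median of the 42 was 0.237 and that of all tested genes 0.198. Klf2 was at 1366, 1849 and 1482 CPM in WT and at 1566, 1611 and 1573 CPM in CharmeKO. Klf4 was at 1702, 2323 and 1844 CPM in WT and at 2151, 1771 and 1976 CPM in CharmeKO. The CharmeKO libraries of both genes lay inside the WT range. Klf10, a target of TGF-β signalling, was at 105.8, 130.5 and 112.2 CPM in WT and at 99.7, 85.6 and 103.7 CPM in CharmeKO, with a log2 fold change of -0.27 (edgeR adjusted p = 0.398).

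Of the other transcription factors, 5 of 6 had lower values in CharmeKO and none was called. Csrnp1, a nuclear protein induced by Axin, was at 719, 1034 and 755 CPM in WT and at 478, 520 and 799 CPM in CharmeKO. Cebpb, a C/EBP factor of inflammatory genes, was at 315, 456 and 384 CPM in WT and at 243, 230 and 378 CPM in CharmeKO. In both genes CharmeKO replicates 1 and 2 were below every WT library and replicate 3 was within the WT range. The log2 fold changes were -0.48 ± 0.206 (SE) for Csrnp1 and -0.44 ± 0.199 (SE) for Cebpb, with edgeR adjusted p-values of 0.363 and 0.391. Cebpd, its relative, had the highest fold change of the members, at 0.24 ± 0.183 (SE). Its level was 777, 1276 and 980 CPM in WT and 1073, 1139 and 1374 CPM in CharmeKO, with overlap between the groups. Myc, Srf and Nfkbiz had values of -0.24, -0.18 and -0.12.

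Of the feedback genes, 4 MAP kinase phosphatases and 7 genes of mRNA decay and growth arrest, 0 were called, and their values ran from -0.30 to 0.13. Dusp1, a phosphatase of p38 and JNK, was at 1550, 2230 and 1624 CPM in WT and at 1914, 1983 and 1999 CPM in CharmeKO, a log2 fold change of 0.13. The 3 CharmeKO libraries of Dusp1 lay close together, inside the wider WT range. Dusp6, a phosphatase of ERK, had a value of 0.05, and the nuclear phosphatases Dusp2 and Dusp5 had values of -0.30 and -0.17. Zfp36, which encodes tristetraprolin, was at 2782, 4479 and 3232 CPM in WT and at 3373, 3203 and 3891 CPM in CharmeKO. Its log2 fold change of -0.004 was the closest to 0 of the members. Socs3 was at 1653, 2496 and 1863 CPM in WT and at 1772, 1744 and 2054 CPM in CharmeKO. Btg2, an antiproliferative gene, was at 664, 1018 and 617 CPM in WT and at 868, 764 and 877 CPM in CharmeKO. WT replicate 2 was the highest library in Zfp36, Socs3 and Btg2, and the groups overlapped in each. Zfp36l1, Gadd45b, Gadd45g and Ppp1r15a, the last a regulator of translation under stress, had values between -0.03 and 0.10.

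The remaining members were the IER proteins and the effectors. Ier2, Ier3 and Ier5 had log2 fold changes of -0.17, -0.07 and 0.10. Arc, best known from synapses, had a value of -0.35 and averaged 143 ± 26.3 CPM over the WT and 113 ± 34.0 CPM over the CharmeKO libraries (SD, n = 3). Rhob, a small GTPase with a short-lived mRNA, had a value of -0.03.

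The members varied together from library to library, and the libraries with the highest and lowest values were found in both genotypes. WT replicate 2 was above the mean of the 6 libraries in 42 of 42 members on the log2(CPM + 1) scale, and was the highest library in 27. CharmeKO replicate 3 was above the mean in 34 members and the highest in 9. CharmeKO replicate 2 was above the mean in 8 members and the lowest library in 19, and WT replicate 1 was the lowest in 16. The median deviation of the members was 0.25 in WT replicate 2, 0.12 in CharmeKO replicate 3, -0.06 in WT replicate 3, -0.04 in CharmeKO replicate 1, -0.15 in WT replicate 1 and -0.17 in CharmeKO replicate 2. Over all tested genes these medians lay between -0.01 and 0.01. TMM scaling largely sets them near 0, so they do not show how other abundant genes moved. Without WT replicate 2 the members' median log2 fold change turned from -0.06 to 0.10 and 25 of 42 members had a higher value in CharmeKO, again with 0 members called. WT replicate 2 also had the highest summed level of the fibroblast markers, 37746 CPM against 29707 to 34774 in the others. Gsn alone made up 26439 CPM of that sum, against 17330 to 22380 CPM in the others. It was the only fibroblast marker that was highest in this library, and Lum and Dpt were lowest there. The leukocyte markers had their lowest sum there as well, 28.6 CPM. Cardiomyocyte markers summed to 207 to 266 CPM in WT and 302 to 474 CPM in CharmeKO over 8 genes, of which Myh6 and Tnni3 were called higher. Epicardial markers summed to 56.9 to 71.4 CPM in WT and 34.0 to 40.6 CPM in CharmeKO over 5 genes, of which Wt1 was called lower. The part of these marker levels in the values of the members was not tested.

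**Figure D4:**
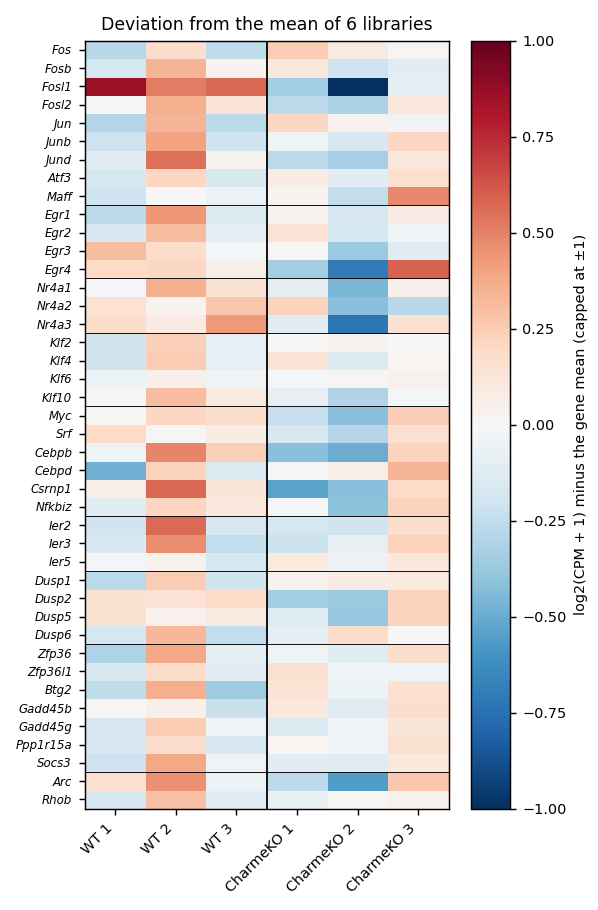
Each cell is the log2(CPM + 1) of a member in a library minus its mean over the 6 libraries, red above and blue below, capped at 1, with black lines between the roles and between the genotypes. The column of WT replicate 2 is above the mean in all 42 rows, and that of CharmeKO replicate 2 in 8.

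Ratios within a library remove a rise or fall shared by both genes. They are given for 7 pairs of related members as a description, because the pairs were chosen after their values were seen. An exact permutation test was run on each pair, but with 3 libraries in each group its p cannot fall below 0.1. The lowest permutation p was 0.1, or 0.233 after adjustment over the 7 pairs, so no conclusion is drawn from this test. The log2 ratio of Fosb to Fos was 0.18, 0.24 and 0.37 in WT replicates 1 to 3 and -0.06, -0.20 and -0.05 in CharmeKO. Every WT library had more Fosb than Fos counts and every CharmeKO library fewer. The difference of the means was -0.37, and it lay between -0.41 and -0.32 when each library was left out in turn. That range rests on the same values that were seen when the pair was chosen, so it adds no support. The ratio of Jund to Jun was -0.04, -0.01 and 0.07 in WT and -0.70, -0.60 and -0.09 in CharmeKO, a difference of -0.47, with CharmeKO replicate 3 close to the WT libraries. The ratio of Fosl1 to Fosl2 differed by -1.25 and carries the difference of Fosl1 described above. The ratios of Junb to Jun, Egr1 to Fos, Egr3 to Egr1 and Nr4a3 to Nr4a1 overlapped between the groups.

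**Figure D5:**
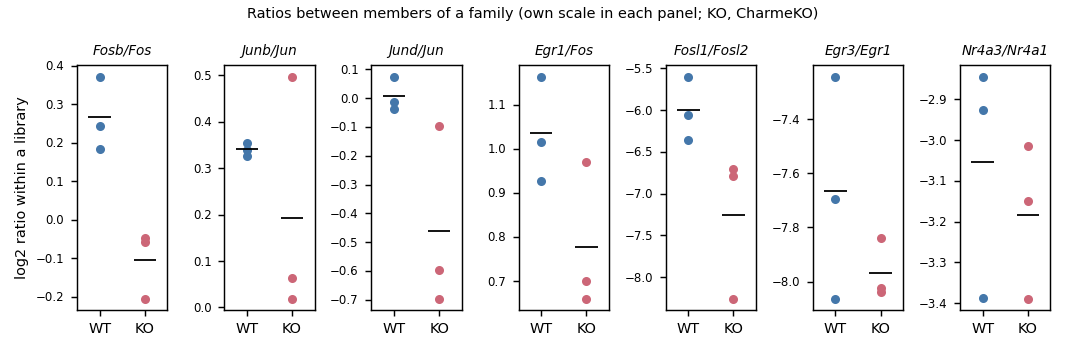
Panels show the log2 ratio of normalized CPM between 2 members in each library, WT in blue and CharmeKO (KO) in red, with bars at the group means and an own axis in each panel. The points of the groups are separate in Fosb/Fos, Jund/Jun and Fosl1/Fosl2 and overlap in the other 4. The pairs were chosen after their values were seen, so the separation is a description only.

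Genes around the members in the same pathway were read in the same fit. Of 36 listed kinases and transcription inputs upstream of the early genes, 34 were tested and 0 were called, and their median was 0.004 on the log2 scale. The lowest unadjusted p-values belonged to Mrtfa, the actin-regulated partner of Srf, and Mapk9, which encodes JNK2. Mrtfa was at 46.6, 60.2 and 64.0 CPM in WT and at 37.0, 34.2 and 47.7 CPM in CharmeKO, a log2 fold change of -0.52 (edgeR adjusted p = 0.202). Mapk9 had a value of 0.28 (edgeR adjusted p = 0.291). Of 39 paralogs of the members, 38 were tested, 0 were called, and 31 had lower values, with a median of -0.18. Lower values were seen in 7699 of all 15789 tested genes. The dual-specificity phosphatases Dusp16 and Dusp8 had the lowest p-values, with log2 fold changes of -0.52 and -0.56 (edgeR adjusted p = 0.111 and 0.202), and DESeq2 called Dusp16.

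Of 40 secreted and other early response genes, all were tested and 0 were called by edgeR. Lower values were seen in 31, beside 7699 of all 15789 tested genes, and the median was -0.16. Gdf15, a stress-induced cytokine, was at 56.7, 40.1 and 50.8 CPM in WT and at 25.6, 24.5 and 37.4 CPM in CharmeKO, a log2 fold change of -0.75 (edgeR adjusted p = 0.104). Trib1, a pseudokinase that promotes degradation of C/EBP proteins, was at 240, 361 and 302 CPM in WT and at 160, 155 and 239 CPM in CharmeKO, a value of -0.70 (edgeR adjusted p = 0.159). All CharmeKO libraries were below all WT libraries in both genes. DESeq2 called these genes and Bhlhe40 lower. At an unadjusted p under 0.05, 8 of these 40 genes stood lower and 1 higher (Rgs2, an inhibitor of G protein signalling), and 8 of the 38 paralogs stood lower and 0 higher, beside 6.87% lower and 5.9% higher of all tested genes.

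Heat shock genes, another set that isolation of cells can induce, differed from the members. Of 15 tested, 2 rose in CharmeKO, where 0.83% of all tested genes were called in either direction. Higher values were seen in 12, beside 8090 of all 15789 tested genes, and the median was 0.38 on the log2 scale. At an unadjusted edgeR p under 0.05, 7 stood higher and 0 lower, beside 5.9% higher and 6.87% lower of all tested genes. DESeq2 called 3 higher, Hspa1a, Hspa1b and Hsp90aa1, where it called 2.5% of all genes. Hspa1a was at 943, 508 and 789 CPM in WT and at 1653, 1809 and 2053 CPM in CharmeKO (log2 fold change 1.30 ± 0.205, SE; edgeR adjusted p = 0.0116). Hspa1b was at 771, 306 and 632 CPM in WT and at 1530, 1759 and 1848 CPM in CharmeKO (log2 fold change 1.59 ± 0.269, SE; edgeR adjusted p = 0.0176). Both encode the inducible Hsp70, and their near-identical sequences can split reads between them, so the single values are uncertain. With the counts of both genes summed to 1 row, which left 1 heat shock call, the log2 fold change was 1.43 (edgeR adjusted p = 0.0137). WT replicate 2, the library with the highest early gene levels, had the lowest level of both genes. CharmeKO replicate 3, where 34 of the 42 members were above their mean, had the highest level of both. Neither gene was called without WT replicate 3 or without CharmeKO replicate 2, where the log2 fold changes of Hspa1a were 1.34 and 1.31 with edgeR adjusted p-values of 0.0545 and 0.0618. Hspa1b was also not called without CharmeKO replicate 1 or 3 (edgeR adjusted p = 0.0760 and 0.0568). The difference between the heat shock genes and the early genes was described and not tested.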

How the data were processed

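Poly(A) RNA of native CFs was sequenced from 3 WT and 3 CharmeKO samples with a directional library kit. Per the methods, the authors aligned reads with STAR to GRCm39 and counted them on an Ensembl annotation (release 87) with Charme added, taking the "reverse" strand. The file deposited holds raw read counts per gene in 6 columns, not normalized. Versions of STAR are not given in the sources used here, and the labels also name the build GRCh38.

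A gene was kept if 2 or more libraries had 10 or more counts. Counts were scaled by TMM and tested with edgeR 4.0.16 (quasi-likelihood, genotype only) in R 4.3.3, with Benjamini-Hochberg adjustment over all 15789 genes and a threshold of 0.05. The common dispersion was 0.041. DESeq2 1.42.0, other scalings and filters, a replicate block and each library left out in turn were alternatives. Standard errors came from the F statistics. Limits for counts cover counting error only, and the upper limit behind a 0 was set at 3 counts (0.0713 to 0.313 CPM, depending on the library). Exon lengths and strand overlaps were taken from GENCODE release 21 (GRCm38), another build than the counts, and promoters from RefSeq. Near-identical copies were searched with blastn 2.17.0 at 97% identity over 50% of the length. The test was also checked on simulated counts.

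The members, lists, motifs and tests were chosen with earlier results of these data known. Values in every library are given for members past the threshold, the 10 highest per kb, and the 5 highest and 5 lowest log2 fold changes. Klf10 and the other members given by library or by group mean, DESeq2 calls among the lists, marker genes and the ratios were added after values were seen. In the other lists, genes past the threshold or the 2 with the lowest p were named. Of the listed upstream genes, Rps6ka4 was not analysed here and Mapk13 did not pass the filter, as Csrnp3 among the paralogs.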

Additional observations from a re-analysis of the deposited data

How the results depend on the processing

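The call of 0 members held under 6 alternatives of scaling, library size, filter or summed Hsp70 genes and without each library in turn. DESeq2, the fit without a gene filter and the fit with the replicate block each called 1 member, Fosl1. Genes past the threshold numbered 131 in all, 394 with DESeq2, 699 without a gene filter, 302 with the replicate block, and 61 to 349 with a library left out, the highest without WT replicate 2. The cause was not tested. As shares of the genes tested in each fit, these were 0.83% in the main fit and 2.5% with DESeq2. They were 2.84% of 24579 genes without a gene filter and 1.91% with the replicate block. With a library left out the share ran from 0.395% to 2.25%. The median of the members ran from -0.138 to 0.105 and the difference in summed share from -0.119 to 0.762 percentage points with a library left out. DESeq2 called 1 paralog, 3 secreted or other early genes and 3 heat shock genes. Without a gene filter the calls were 1 upstream gene, 2 paralogs, 5 secreted genes and 4 heat shock genes. With a library left out they were 0 to 1 paralogs, 0 to 5 secreted genes and 0 to 2 heat shock genes. Summing the Hsp70 genes, chosen after seeing the data, left 1 heat shock call by construction.

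Values near 0 changed sign: Zfp36 was 0.011 with upper-quartile scaling and 0.001 without a gene filter, and Klf4 -0.001 with DESeq2 and with its size factors. With a library left out, Junb ran from -0.129 to 0.209, Egr1 from -0.179 to 0.191, Zfp36 from -0.141 to 0.213, Klf2 from -0.070 to 0.151, Fosb from -0.254 to 0.005, Socs3 from -0.228 to 0.078, Klf4 from -0.081 to 0.147, Egr4 from -1.745 to 0.063, Maff from -0.025 to 0.355 and Btg2 from -0.008 to 0.383.

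The labels number the samples 1 to 3 in both groups. Same-numbered samples had correlated deviations of r = 0.216, 0.053 and 0.161 over 15789 genes, and every sample correlated best with its own number. The S codes in the sample descriptions also place same-numbered samples next to each other. These correlations were weak and no label states a pairing, so the numbers were not taken as pairs. With the replicate block, 115 genes were higher and 187 lower, and Fosl1 was at -1.524 (edgeR adjusted p = 0.0357). In that fit 1.91% of all tested genes were called, among them 2 secreted genes and 3 heat shock genes. Junb was 0.003 and Zfp36 0.022. Low depth limits Egr4 (4 to 56 counts) most.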
